A study of Mus musculus with 6 samples.

Results

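The clustered protocadherins are 58 genes on mouse chromosome 18, chosen by symbol (Pcdha, Pcdhb or Pcdhg) and by position in the GRCm38 build, out of 36835 genes on the chromosomes covered. They run from 36930285 to 37841873 and fall into an alpha subcluster of 14 genes, a beta subcluster of 22 and a gamma subcluster of 22. The copy of the peak list analysed here stops in an incomplete line on chromosome 6, so it holds the list only in part, and every share of the list below refers to this copy. Chromosome 18 lies before that point. Of the 84111 peaks in the copy, 114 had their midpoint in this interval or within 1 kb of it (0.136%). No peak lay in the 1 kb margins alone, so all 114 belong to the interval itself.

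The study measured DNA methylation by MBD-seq, in which fragments carrying methylated CpG are captured by the methyl-binding protein MBD2 and sequenced. The cells were primary chondrocytes, cultured from the knee articular cartilage of mice at postnatal day 3 to 5. In 3 control cultures the labelled genotype is Dnmt1 flox. In 3 conditional knockout (cKO) cultures it is Prx1-Cre;Dnmt1 flox/flox, where Prx1-Cre recombines in limb mesenchyme as a whole and so is not restricted to chondrocytes. The labels do not say whether a culture pooled animals. A single peak list was analysed, called on 3 merged datasets that its peak names do not tie to either genotype. The submitters title it as methylation mediated by Dnmt1, the enzyme that maintains methylation after replication. Whether a peak marks methylation as such or a signal that depends on Dnmt1 cannot be told apart here, and the same holds for the stretches without peaks. It holds no value per culture, so control and cKO were not compared, no spread between animals can be given and the depth of each library is unknown. Methylation peaks give no transcript level, so the labelled cell type was not checked against marker genes.

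Protocadherins are cell-surface adhesion proteins of the cadherin superfamily, best known for giving neurons distinct surface identities. In the alpha and gamma subclusters each gene starts with its own variable exon, which encodes the extracellular and membrane-spanning parts and has its own promoter, and is spliced to constant exons that all genes of the subcluster share. Beta genes are variable exons without a constant part. The C-type genes (Pcdhac1, Pcdhac2, Pcdhgc3, Pcdhgc4 and Pcdhgc5) lie at the far end of their subcluster and are regulated apart from the others. Choice among the variable promoters is known to depend on CpG methylation, on CTCF and cohesin, and on the silencing factor Smchd1.

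Peaks gathered in the variable exons. Exons were not annotated in the sources used here, so the first 2.5 kb from each gene start served as the variable-exon window, and a peak was placed there by its midpoint. By this measure 55 of the 58 genes had at least 1 peak in the window. Among the 12547 other protein-coding genes whose strand was known, the percentage was 11.4%. At least 2 peaks were found in 25 members, against 1.08% of the other genes. The 58 windows made up 15.9% of the interval and held 83 of its 114 peaks (72.8%). Density was 57.2 peaks per 100 kb inside the windows and 4.03 outside them, the latter close to the 4.30 of all chromosomes covered. These are counts over genes and peaks of 1 list, with no test between conditions behind them.

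Peak midpoints lay after the gene start. None of the 58 members had a peak midpoint in the 1 kb before its start, where 2.31% of the other genes had one. At so low a share, an absence in 58 genes is near the background and does not set the members apart. From 2.5 to 5 kb after a start, and before the next start, 4 peaks were found, behind Pcdha11, Pcdhb22, Pcdhga5 and Pcdhgc5. Of the other genes 14.6% had a peak at this distance, counted without a cut at the next start. Some members have their next start less than 5 kb away (3779 bp at the closest), so these values are not like for like. The peak closest outside the window lay 2544 bp after the start of Pcdhgc5, and the farthest inside it 2316 bp after the start of Pcdhga12. Widening the window to 3 kb left the count at 55. The arrangement within the window is given by family below, and that of beta and gamma B genes was alike in part.

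**Figure D1:**
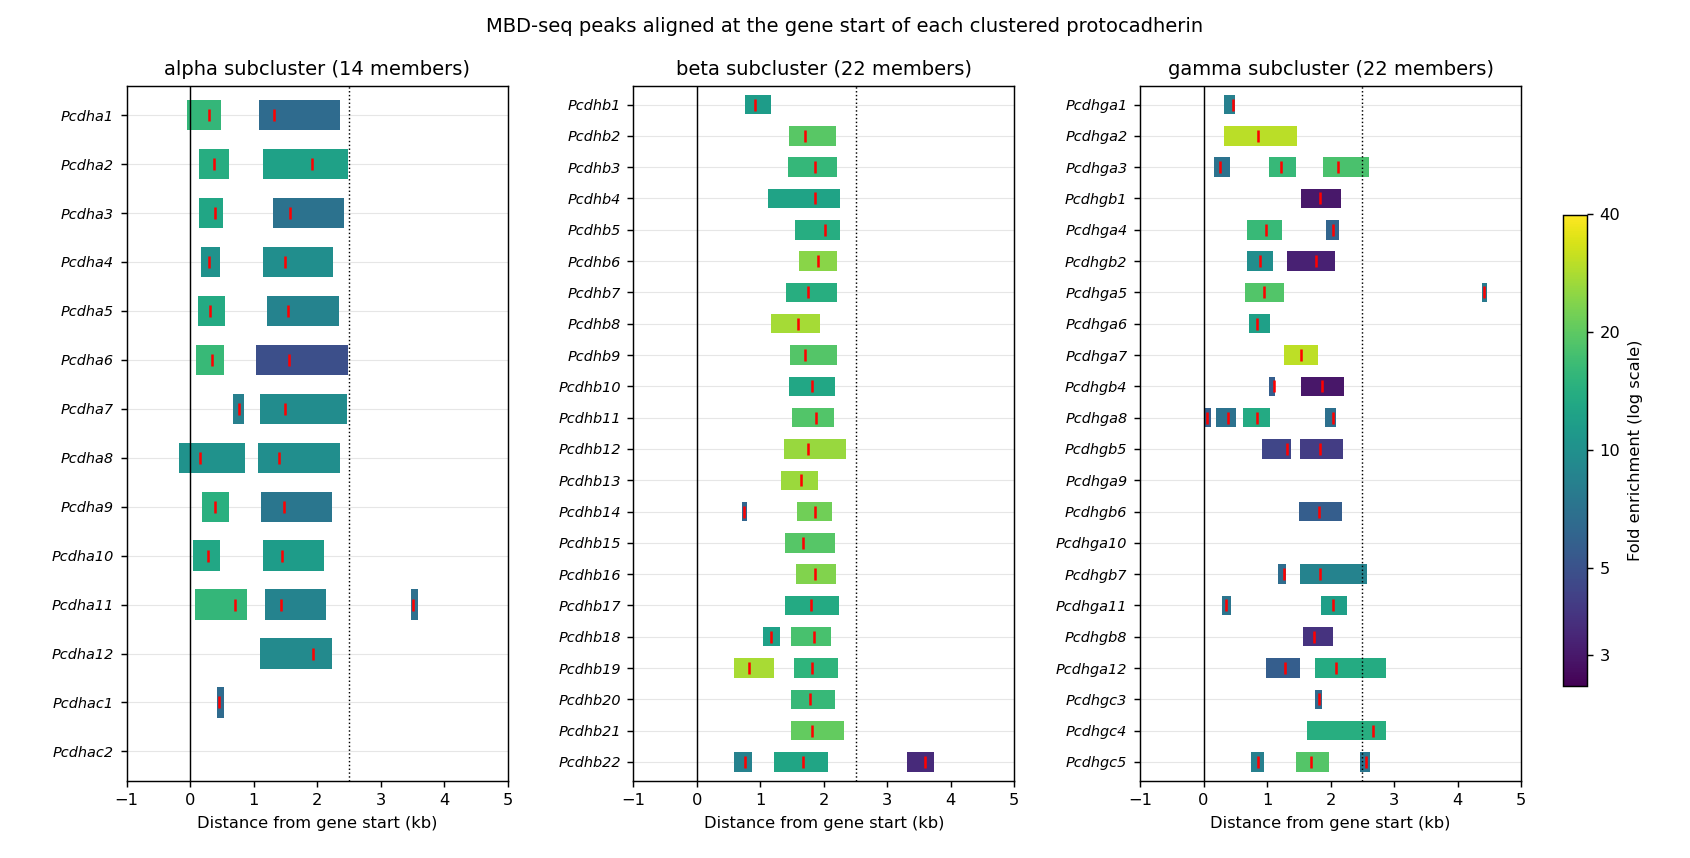
Peaks (bars, from start to end) and their summits (red ticks) for every member, aligned at the gene start (solid line at 0); the dotted line marks 2.5 kb, and colour gives the deposited fold enrichment on a log scale. Alpha genes show an early and a late bar, beta genes mostly a late bar, and Pcdhac2, Pcdhga9 and Pcdhga10 none.

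The 12 alpha genes Pcdha1 to Pcdha12 carried a pair of peaks. An early peak was present in 11 of the 12, with a median midpoint 336 bp after the start (range 214.5 to 764), and a late peak in all 12, at a median of 1715 bp (1628 to 1860). The split at 1250 bp between early and late was set after the positions had been seen. A late peak was found in 6.6% of the other genes and an early one in 5.52%. Midpoints of the pair were 1372.5 bp apart at the median (1021 to 1530.5). Starts of these genes were a median of 7349 bp apart.

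Fold enrichment, the authors' ratio of the pileup of reads at the summit to the caller's background, was higher in the early peak in 10 of the 11 pairs. Its median was 13.4 in early peaks (8.28 to 16.3) and 8.97 in late peaks (4.84 to 12.2). The number of reads ran the other way. The recovered pileup, in reads, was higher in the late peak in all 11 pairs, with medians of 114 and 346. The recovered background was higher there too, with medians of 6.37 and 36.6 reads. Late peaks were therefore lower in fold at a larger pileup.

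Pcdha1, the first gene of the cluster, shows this pattern. Its early peak at 36930231 to 36930768 had 115 reads at the summit and a background of 6.37, which gives a fold of 15.7 (95% interval 13.02 to 18.9). Its late peak at 36931365 to 36932646 had 395 reads over 59.5, a fold of 6.54 (5.91 to 7.22). These intervals are exact Poisson limits of the pileup with the background held fixed. They cover counting error of the pileup only, and the error of the background is left out. They do not overlap. Pcdha6 had the widest separation, with folds of 16.3 (13.5 to 19.5) and 4.84 (4.38 to 5.34) for 119 and 400 reads. Its late peak, 1435 bp wide, was the second widest of the interval.

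In Pcdha11 the early fold was 15.6 (12.9 to 18.7) and the late fold 8.66 (7.73 to 9.66). In Pcdha2 they were 14.02 and 12.2, in Pcdha4 10.2 and 9.76, in Pcdha8 10.3 and 9.78, and in Pcdha10 13.02 and 11.5. The counting intervals overlap in each of these genes. Pcdha7 was the exception to the order, with an early fold of 8.28 (6.35 to 10.6) and a late fold of 9.54 (8.53 to 10.6). Its early peak also stood apart in position, 764 bp after the start, and was the narrowest of the 11 at 169 bp. Pcdha12, the last of the 12, had the late peak alone, with a fold of 9.28 (8.30 to 10.4) at 319 reads.

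Late alpha peaks were wide. Of the 12, 10 exceeded 1 kb (median 1139 bp, range 964 to 1435), whereas 3.92% of all peaks in the list did. The 5 widest peaks of the interval included those of Pcdha6, Pcdha7 (1371 bp), Pcdha2 (1336 bp) and Pcdha8 (1287 bp). The widest, 1464 bp, lay in Gm36858, a pseudogene between Pcdha7 and Pcdha8. Gm36858 held 6 peaks with folds from 4.36 to 9.43 and none at the lowest background.

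The alpha C-type genes and the constant part were nearly free of peaks. Pcdhac1 had 1 narrow peak of 109 bp, 470 bp after its start, with 47 reads and a fold of 6.51 (4.82 to 8.61). Pcdhac2 had none in the window or in the gene body. No peak was found in the 42.7 kb from the end of the Pcdhac2 window to the last alpha gene end, which is that of Pcdha6. The end shared by the other 13 alpha genes lies 41.5 kb from the window, so the constant exons are included. All chromosomes covered had 4.30 peaks per 100 kb, and 15.2% of all gaps between neighbouring peaks were 44.3 kb or longer. An absence over a stretch of this length is therefore near the background and does not set the constant part apart. The longest stretch without peaks ran from Pcdhac1 past Pcdhac2 and the alpha end, 37090661 to 37228183, or 137.5 kb. A gap this long or longer accounted for 2.18% of all gaps between neighbouring peaks in the list. The list starts at a −log10 q of 20.004, so weaker enrichment in such a gap could not be seen.

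The 22 beta genes carried a late peak at a nearly fixed distance. All 22 had a peak in the window and in the gene body. Among protein-coding genes of 2 to 6 kb, which spans the beta lengths of 2340 to 5271 bp, 35.9% had a peak in the body. The late peak was present in 21, with summits at a median of 1808 bp after the start (SD 101 bp over 21 peaks, range 1588 to 2011). Pcdhb1, the first beta gene, was the exception, with a peak 962.5 bp after its start. An early peak accompanied the late one in Pcdhb14, Pcdhb18, Pcdhb19 and Pcdhb22. Starts come from RefSeq transcripts, so these offsets also depend on how far each transcript model extends.

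Folds of the late beta peaks ranged from 12.5 in Pcdhb4 to 27.6 in Pcdhb8, with a median of 18.9. Of the 21, 18 were at or above the list median of 13.2, whereas none of the 12 late alpha peaks was. The lowest late beta fold, 12.5 (11.2 to 13.9), lay within the counting interval of the highest late alpha fold, 12.2 in Pcdha2 (10.8 to 13.7). Pileups were lower than in the late alpha peaks at the median, with 229 reads (134 to 344) against 346 (273 to 400). Backgrounds were lower as well, with medians of 10.5 and 36.6 reads.

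Pcdhb8 had 244 reads over a background of 7.89 and a fold of 27.6 (24.2 to 31.2). Pcdhb13 followed at 26.5 (23.02 to 30.3) and Pcdhb12 at 26.1 (22.9 to 29.6), within counting error of Pcdhb8. Pcdhb4 had more reads, 344, over a background of 26.5. The early peak of Pcdhb19 had the highest fold of the beta windows, 27.9 (24.3 to 32.0), within counting error of Pcdhb8 and above the 15.2 (13.2 to 17.5) of its late peak. Pcdhb19 was the exception among the 4 beta genes with a pair, as the late peak had the higher fold in the other 3. In Pcdhb14 the folds were 6.10 (4.47 to 8.15) early and 21.9 (19.0 to 25.1) late, and in Pcdhb18 12.1 (9.71 to 14.8) and 17.8 (15.5 to 20.3). In Pcdhb22, the last beta gene, they were 8.57 (6.82 to 10.6) early and 12.7 (11.4 to 14.1) late. The counting intervals do not overlap in any of the 4. Pcdhb1 had a fold of 11.4 (9.10 to 14.1) at 83 reads.

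**Figure D2:**
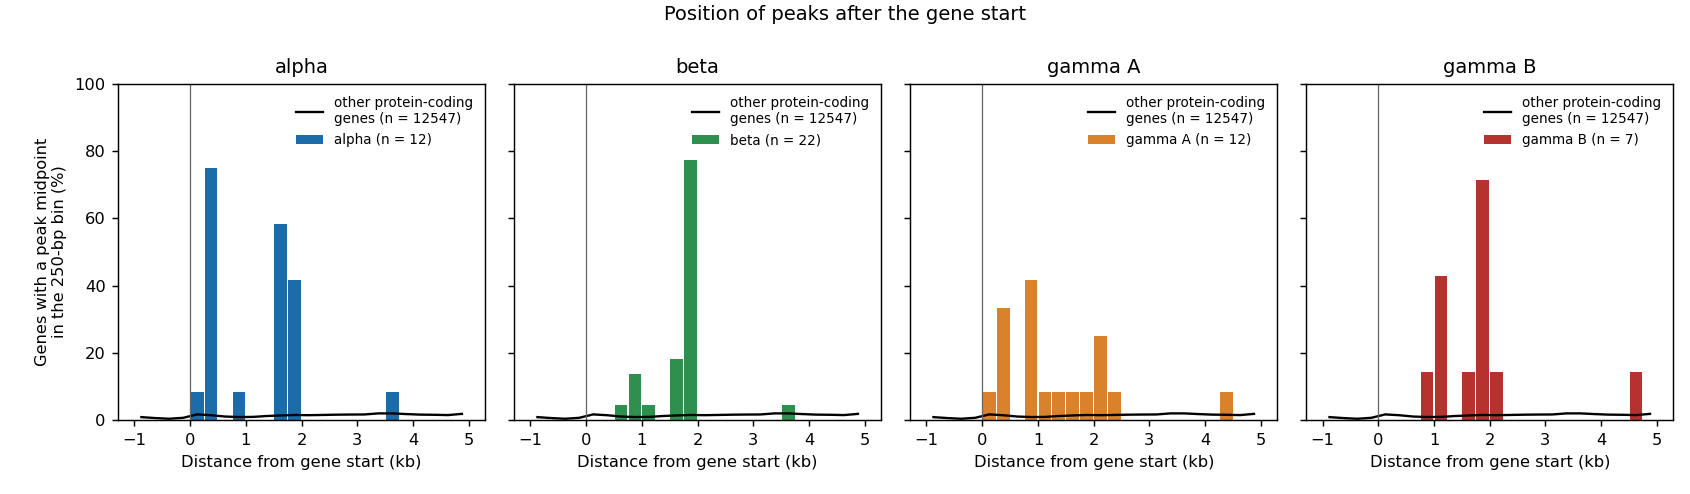
Percentage of genes with a peak midpoint in each 250-bp bin from 1 kb before to 5 kb after the gene start, for 4 families (bars) and for the other protein-coding genes of known strand (black line). The beta bars concentrate between 1.5 and 2 kb and the alpha bars in 2 places, while the line stays low throughout; the gamma B bar past 4.5 kb is a peak of the next gene, Pcdhga11.

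The gamma subcluster interleaves A genes and B genes, and their peaks are given side by side. All 7 B genes had a late peak, with summits from 1747 to 1867 bp after the start (SD 40.7 bp over 7 peaks). The median of 1830 bp was close to the 1808 bp of the late beta summits. An early peak was also present in 4 of the 7, with midpoints from 889.5 to 1235.5 bp. Of the 12 A genes, 10 had a peak in the window. It was early in 8 and late in 6, with 4 genes having both. Early midpoints of the A genes spread from 73.5 to 1240 bp and their late summits from 1279 to 2118 bp. Folds of the A-gene peaks ranged from 5.66 to 30.3, with a median of 11.9 over 18 peaks. Those of the B-gene peaks ranged from 2.95 to 9.77, with a median of 4.45 over 11 peaks. The ranges overlap, and no test of the difference was made.

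Among the A genes, Pcdhga7 had the highest fold, 30.3 (26.4 to 34.5), at 222 reads over the lowest background. Pcdhga2 was indistinguishable from it by counting error, at 29.9 (26.1 to 34.1) with 220 reads. Pcdhga5 had 18.7 (16.2 to 21.6) and Pcdhga4 16.1 (13.97 to 18.5). Pcdhga8 had 4 peaks in its window, the most of any member, with folds from 5.77 to 13.4. Pcdhga1, the first gamma gene, had a narrow peak of 180 bp with a fold of 8.28 (6.35 to 10.6), and Pcdhga9 and Pcdhga10 had no peak in the window.

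The lowest folds of all windows were those of B genes, at some of the largest pileups. In Pcdhgb4 the late peak had 364 reads over a background of 122.7, a fold of 2.95 (2.66 to 3.27). In Pcdhgb1 408 reads stood over 136.3 and in Pcdhgb2 434 reads over 133.4, with folds of 2.98 (2.70 to 3.28) and 3.24 (2.94 to 3.55). The pseudogene Pcdhgb8 had a fold of 3.74 (3.36 to 4.15). Pcdhgb7 was the highest of the late B peaks, with 8.61 (7.46 to 9.88) at 199 reads over 22.2. The median background of the late B peaks was 93.5 reads, a level that 2.59% of all peaks in the list reached.

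All 3 gamma C-type genes had a window peak, as did Pcdhac1 but not Pcdhac2. Pcdhgc3 had a narrow one of 106 bp with 47 reads and a fold of 6.51 (4.82 to 8.61), 1814 bp after its start. Its −log10 q of 23.4, the same as that of the Pcdhac1 peak, was close to the 20.004 at which the list starts. Pcdhgc4 had a broad one of 1247 bp with a fold of 14.2 (11.7 to 17.2). Pcdhgc5, the last gene of the cluster, had 2 in the window, of 8.28 (6.35 to 10.6) and 19.1 (16.1 to 22.6). All 4 were at the lowest background. The 19.8 kb of the gamma constant part held 2 peaks, with folds of 7.46 (5.64 to 9.69) at its beginning and 13.3 (10.8 to 16.2) near its end.

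**Figure D3:**
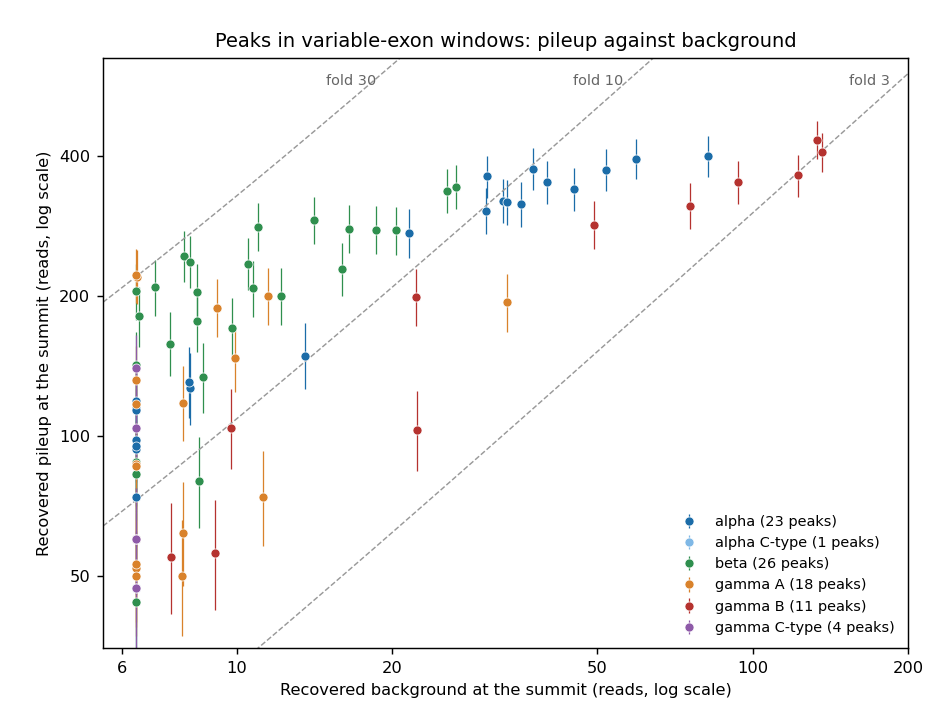
Recovered pileup against recovered background at the summit of each of the 83 window peaks, both in reads on log axes, coloured by family; bars are 95% Poisson intervals of the pileup, dashed lines mark equal fold, and points at the left edge share the lowest background. Late alpha and gamma B peaks reach 400 reads but lie at backgrounds above 20, while gamma C-type points (one of them over the single alpha C-type point) stay at the left edge.

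The recovered background was higher in the cluster than in the list at large. A background of 6.37 reads was the lowest found and was shared by 75.03% of all peaks, but by 37.7% of the peaks of the interval (43 of 114). In the windows the share was 33.7%, against 84.0% among window peaks of the other protein-coding genes. Peaks with more reads or greater width were less often at the lowest background throughout the list, with 38.5% of the 24062 peaks of 200 to 450 reads and 25.5% of the 3301 peaks over 1 kb. None of the 12 late alpha and none of the 11 gamma B window peaks was at it, and 1 of the 21 late beta peaks was. At 200 to 450 reads the median fold of the list was 27.4, above every late alpha and late gamma B peak. The late Pcdhgb7 peak, at 199 reads, lies just below this range. Early gamma B peaks, at 55 to 104 reads, lie well below it and are not compared with it.

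Which reads the caller's background was computed from is not given in the sources used here. What raised it in the cluster was not tested. Variable exons of 1 family resemble one another in sequence, and how reads with several matches were treated is not given in the sources used here. Values of single members in a family are uncertain to that extent. Counting only peaks at the lowest background, 24 members had a window peak, against 9.79% of the other genes. Counting only those above it, 43 members had one, against 1.79%. With peaks at or above the list median fold the count was 33, against 6.56%, and with a −log10 q of at least 100 it was 42, against 6.14%.

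The window nearest the gene start gave a smaller count that depended on its size. Within 1 kb of the start, on either side, 26 of the 58 members had a peak, against 6.72% of the other genes. They were 11 of the 12 alpha genes and Pcdhac1, 4 beta genes (Pcdhb1, Pcdhb14, Pcdhb19 and Pcdhb22) and 10 gamma genes. Members without one were Pcdha12 and Pcdhac2, then Pcdhb2 to Pcdhb13, Pcdhb15 to Pcdhb18, Pcdhb20 and Pcdhb21, and in the gamma subcluster Pcdhgb1, Pcdhgb4 to Pcdhgb8, Pcdhga7, Pcdhga9, Pcdhga10, Pcdhga12, Pcdhgc3 and Pcdhgc4. A window of 500 bp gave 15 members and one of 2 kb gave 54. With a −log10 q of at least 100 the count within 1 kb was 7. The 6.72% belongs to the 1 kb window with all peaks. No share of the other genes is given here for the other settings, so these counts are not set against a background. At the distal gene end 13 alpha genes share 1 position and 21 gamma genes another, and no peak lay within 1 kb of either. Of the 22 beta genes, whose ends are separate and lie within a few kb of the start, 4 had a peak there (Pcdhb2, Pcdhb8, Pcdhb21 and Pcdhb22), a share near the 16.9% of the other genes. Pcdhgb8, with an end of its own, had one and Pcdha6 none.

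Along the interval the subclusters differed in density and spacing. Gamma had 19.99 peaks per 100 kb (36 peaks), alpha 12.8 (33 peaks) and beta 12.1 (31 peaks), against 4.06 on chromosome 18 as a whole. In alpha 30 of the 33 peaks lay before the end of the Pcdha12 window, and over this variable part the density was 32.5 per 100 kb. The gamma value up to the end of the Pcdhga12 window was 28.2 (30 peaks), so there alpha was the denser. The order of whole subclusters also changed with the strength of the peaks counted. At a −log10 q of at least 100 beta had 10.1 peaks per 100 kb, alpha 7.73 and gamma 5.55, and the variable parts had 20.6 in alpha and 8.47 in gamma. The median fold was 16.0 in beta, 9.43 in alpha and 7.60 in gamma, and with the same filter that of gamma was 17.1. Neighbouring peaks were a median of 2.46 kb apart in alpha, 6.92 kb in beta and 3.47 kb in gamma, against 9.03 kb over all chromosomes. The alpha value lies between the 1372.5 bp within pairs and the 7349 bp between alpha starts. The beta spacing was near the 7842 bp between beta starts.

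Counted in steps of 100 kb, the part from 36900001 to 37000000, which holds Pcdha1 to Pcdha9, had 24 peaks, a level reached by 0.456% of the 19499 steps of the list. The step from 37100001 to 37200000, with Pcdhac2 and the alpha constant part, had 0. The share of all steps that had 0 is not given here. The step from 37700001 to 37800000, over the gamma A and B genes, had 18, a level reached by 1.66% of steps. The median step had 3 peaks.

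**Figure D4:**
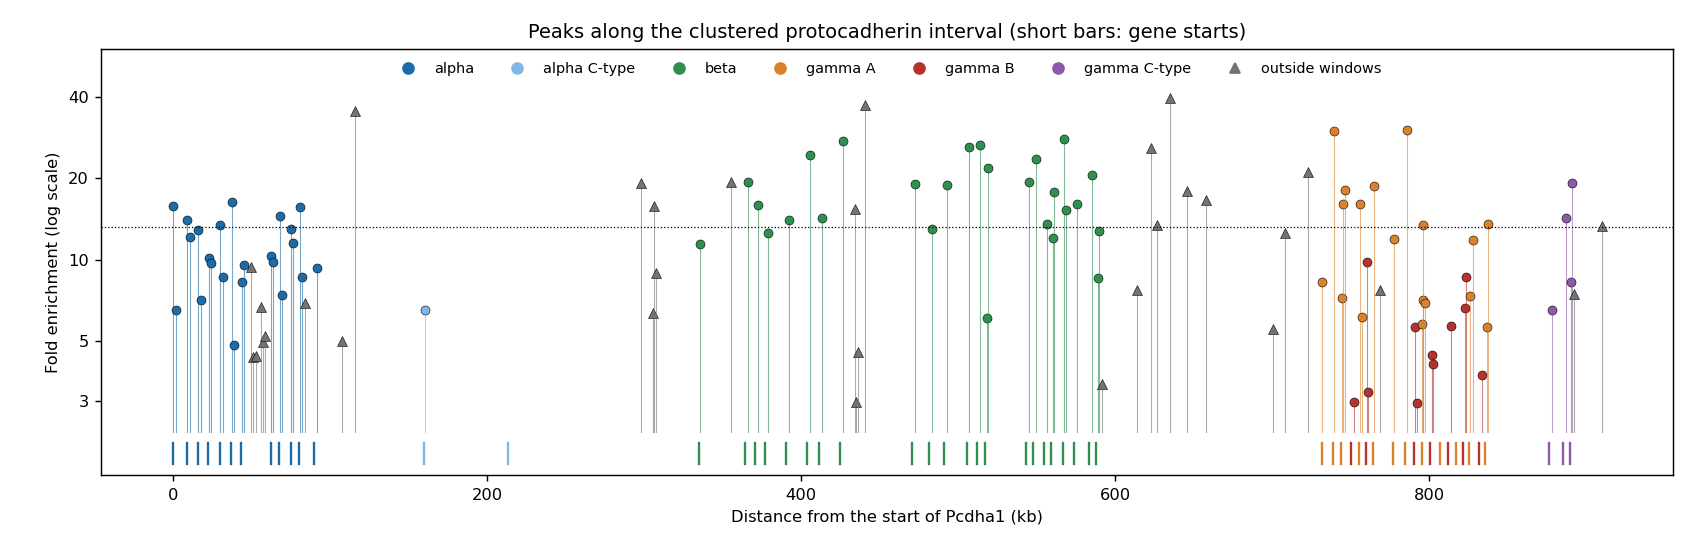
Fold enrichment (log axis) of the 114 peaks against distance from the start of Pcdha1 in kb; circles are peaks in variable-exon windows coloured by family, triangles are peaks elsewhere, short bars mark gene starts and the dotted line is the list median of 13.2. The 3 highest points are triangles, and the stretch around Pcdhac2 is empty.

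The 3 highest folds of the interval lay outside the variable-exon windows. Of its 15 peaks with a fold of at least 20, 10 lay inside them. The highest, 39.7 (35.3 to 44.6), lay between the beta and gamma subclusters at 37565038 to 37565577, outside any gene of the table other than the long readthrough entries that span the cluster. It had 292 reads over the lowest background. The next, 37.3 (33.03 to 41.98), lay at 37370792 to 37371385 between Pcdhb8 and Pcdhb9. The third, 35.4 (31.2 to 39.96), lay at 37045672 to 37046284 in the stretch between Pcdha12 and Pcdhac1. All 3 were at the lowest background, and Pcdhga7 and Pcdhga2 came after them. Between Pcdhb8 and Pcdhb9 another peak at 37365175 to 37365842 had the largest pileup of the interval, 745 reads over a background of 250.3, and a fold of 2.97 (2.76 to 3.19). Outside the windows the median fold was 8.95 over 31 peaks, and inside 12.1 over 83.

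Other gene clusters and related genes were placed beside the members in the same way. The Ugt1a genes on chromosome 1, which encode glucuronidating enzymes, share the layout of variable first exons and a common end. None of the 7 with a known strand had a peak in the 2.5 kb window, where 11.4% of all other genes had one, so a count of 0 in 7 genes is near the background. The interval had 3.04 peaks per 100 kb. In the Hoxa cluster of patterning genes 4 of 9 had a window peak (Hoxa2, Hoxa5, Hoxa11 and Hoxa13) at 23.7 peaks per 100 kb. In the Hoxd cluster it was 1 of 9 (Hoxd4), at 11.3. Within 1 kb of the start there were peaks at Hoxa2 (fold 6.51), Hoxa5 (fold 23.4) and Hoxd9 (fold 6.51). No test of these differences was made.

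Protocadherins outside the cluster, also adhesion proteins but each with its own full set of exons, had none in the window in 8 of 8 genes with a known strand (Pcdh7, Pcdh8, Pcdh9, Pcdh10, Pcdh15, Pcdh17, Pcdh18 and Pcdh20). This too is near the 11.4% background. Of the 10 analysed, 9 had a peak somewhere in the body, Pcdh15 with 32 and Pcdh9 with 11. Among protein-coding genes of all lengths 64.3% had one. That share was not matched for length, and a longer body can hold more peaks. Pcdh15 spans 1553555 bp and Pcdh9 879135 bp. Genes known to act on the cluster, from cohesin with its loading and release factors (Rad21, Smc3, Nipbl, Wapl) to the methylation and silencing factors Dnmt3a, Dnmt3b, Uhrf1, Setdb1 and Smchd1 and the oxidases Tet1 and Tet3, had a body peak in 10 of 11. These genes span 20150 bp (Uhrf1) to 175492 bp (Nipbl), so their body count has no share matched for length beside it either. A window peak was found in 1 of the 9 with a known strand, Tet3, again near the 11.4% background. No start peak was found in any of the 9, against 6.72%. Ctcf, Dnmt1, Smc1a, Stag1, Stag2, Trim28, Pcdh11x and Pcdh19 were not analysed here.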

How the data were processed

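MBD-seq libraries of 6 cultures (3 control, 3 cKO) were made from DNA sonicated to about 300 bp, per the labels' protocols. The submitters' processing notes name fastp, Bowtie2 and MACS2 and the build mm10/GRCm38, without versions or settings. Per the peak names, 3 datasets were merged before peak calling. For each peak the authors deposited the fold, a linear ratio over the caller's background, −log10 p and −log10 q values, and a score, which equals 10 times the −log10 q rounded down. Start, end and summit offset are positions, printed 1-based in GRCm38; the copy analysed here stops in an incomplete line, which was dropped. Chromosomes 1 to 5 and 10 to 19 and part of 6 were covered, and those sorted after 6 were not analysed here.

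Pileup and background were recovered by solving fold = (pileup + 1)/(background + 1) together with the Poisson p for a whole-number pileup; 99.97% of peaks matched within 1% of the spacing between whole pileups, and all 114 of the interval did. The step was tested on simulated data. That the caller works this way is inferred from the match. A background within 1% of 6.37 reads counted as the lowest. Gene ends came from a RefSeq table of GRCm38.p6. Strand came from a RefSeq promoter table, which has none of the members or other genes of chromosome 18. Members were read in the direction of rising coordinates, since alpha and gamma genes share their upper end: 13 of 14 alpha and 21 of 22 gamma ends agree to 10 bp. No sequences were printed or analysed.

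The members, lists and windows were chosen with earlier results of these data known. All members were counted. Named with values were the C-type genes and the first and last gene of each subcluster. So were the 3 highest start-window folds per subcluster and the 5 highest and 5 widest peaks. Members without a start-window peak were all named, but only some of them with values. Other genes named were chosen after their values were seen. Alternatives were a stricter −log10 q (50 or 100), fold at or above the median, merging within 500 bp, placing by summit or overlap, peaks at the lowest background, and other windows. Counting only peaks above the lowest background, and densities of the variable parts with their stricter −log10 q, were added after seeing the data. Python 3.11.15, numpy 2.4.6, pandas 2.3.3 and scipy 1.17.1 were used.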

Additional observations from a re-analysis of the deposited data

How the results depend on the processing

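No paired analysis was possible because peaks carry no values per culture; the planned count test with its alternatives, left-out replicates included, was not run either. Placing peaks by summit or overlap and dropping the 1 kb margin moved none of the counts by over 1.5 times. Changing the variable-exon window to 2 or 3 kb did not either. The alpha constant part still had 0 peaks when placed by summit or overlap. The filters and merging cannot add a peak, so their count of 0 there was fixed in advance. Alpha was denser than gamma over the variable parts at a −log10 q of at least 50 too (28.1 and 17.9 peaks per 100 kb). Merging moved the alpha spacing to 5.02 kb and the gamma constant part to 1 peak. A −log10 q of at least 50 gave gamma 12.2 peaks per 100 kb, a median fold of 12.6 and a spacing of 5.55 kb, alpha a spacing of 4.10 kb, 17 members with a start-window peak and 1 peak in the gamma constant part. At 100 or more, 64 peaks remained, with densities of 7.73 (alpha) and 5.55 (gamma), spacings of 5.86 and 9.73 kb, a gamma fold of 17.1, 21.9% at the lowest background, 7 members with a start-window peak and 0 in the gamma constant part. Peaks at or above the median fold numbered 48, with densities of 2.71 (alpha) and 6.11 (gamma), spacings of 17.0 and 9.89 kb, 11 members with a start-window peak, 33 with a variable-window peak and 1 in the gamma constant part. Peaks at the lowest background numbered 43, with densities of 4.25 (alpha), 2.73 (beta) and 9.44 (gamma), spacings of 7.46, 30.9 and 8.02 kb, a gamma fold of 11.8 and 24 members with a variable-window peak. Above it were 71 peaks and 8 members with a start-window peak. Start windows of 500 bp and 2 kb gave 15 and 54 members. No share of the other genes is given here for the start-window counts under these alternatives. Filters remove peaks by construction, which lowers counts and widens spacing. Depth per library is unknown, and enrichment below a −log10 q of 20.004 is not in the list.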
